A study of Mus musculus with 8 samples.

Results

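The small leucine-rich proteoglycans are secreted matrix proteins, and the transcripts of 10 of them were followed in newborn mouse calvaria, which are the bones that roof the skull. The members were chosen by gene symbol: decorin (Dcn), biglycan (Bgn), asporin (Aspn), fibromodulin (Fmod), lumican (Lum), Prelp, keratocan (Kera), osteomodulin (Omd), osteoglycin (Ogn) and epiphycan (Epyc). Each of the 10 symbols matched 1 of the 49315 gene IDs in the count table. The study sequenced bulk RNA from 4 Girk3 knockout (Girk3-/-) and 4 wild-type (WT) female C57BL6 mice aged 2 to 3 days, and it concerns bone mass after global loss of Girk3. Girk3, encoded by Kcnj9, contributes a subunit to potassium channels that G proteins open. The labels name no treatment and no sorting of cells in either genotype, and the knockout is global, not limited to 1 cell type.

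Proteins of this family have a core of leucine-rich repeats that binds collagen, and they set the width and spacing of collagen fibrils. Most carry glycosaminoglycan chains, chondroitin or dermatan sulfate on Dcn and Bgn and keratan sulfate on Fmod, Lum, Kera and Omd, and several bind growth factors of the TGF-beta family. In bone they are products of osteoblasts and of the fibroblasts of periosteum and sutures, and mice without Bgn are known to have low bone mass. The family is sorted by sequence into class I (Dcn, Bgn, Aspn), class II (Fmod, Lum, Prelp, Kera, Omd) and class III (Ogn, Epyc).

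The 8 libraries held between 35.4 M and 54.3 M counts each. Levels are given as CPM, the counts of a gene per 1 M counts of its library after TMM scaling, and a floor of 3 counts came to at most 0.0816 CPM. The targeted gene could not check the labels, since Kcnj9 held 2, 5, 7 and 9 counts in the knockout libraries and 0, 0, 1 and 4 in the WT libraries (exact two-sided permutation test of CPM, p = 0.0571). Osteoblast markers summed to between 14894 and 19243 CPM in the knockout libraries and between 19018 and 22316 CPM in the WT libraries, and the 9 epidermal markers summed to between 8.94 and 14.1 CPM in knockout and between 9.40 and 11.6 CPM in WT. The basal keratins Krt5, Krt14 and Krt15 were under 1 CPM in every library, and Krt10 ran from 3.53 to 5.79 CPM over the 8 libraries. Skeletal muscle RNA varied widely within both genotypes. The 12 muscle markers summed to 3171, 64.8, 185 and 817 CPM in knockout replicates 1 to 4 and to 2189, 1687, 27.8 and 1596 CPM in WT replicates 1 to 4. Knockout replicates 2 and 3 and WT replicate 3 therefore stood apart as low in muscle RNA, and results that rest on them are given with and without them. Among 17743 tested genes 234 passed an adjusted p of 0.05 between the genotypes (edgeR's quasi-likelihood test, Benjamini-Hochberg adjustment over all tested genes), which is 1.32%. Of these 79 were higher and 155 lower in knockout, a split that was 113 higher and 99 lower with library totals and 305 and 303 without knockout replicate 4. In bulk tissue, fewer cells of a type and less RNA per cell cannot be told apart.

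All 10 members passed the filter on low counts, and none passed the test between knockout and WT calvaria, against the background of 1.32%. None reached an unadjusted p under 0.05, where 17.4% of all tested genes did (8.29% higher and 9.11% lower), and in none did the 4 knockout libraries lie apart from the 4 WT libraries, where 10.6% of all tested genes did. DESeq2 called 7.06% of the 13911 genes to which it gave an adjusted p and limma-voom 0.941% of 17743; each called 0 members, and by either tool 0 members had an unadjusted p under 0.05. The median log2 change of the members was -0.04, beside -0.00030 over all tested genes. Of the 10 members 8 had a log2 change below 0. With library totals in place of the TMM factors 4 of 10 did, where the median of all tested genes moved to 0.05 and that of the members to 0.01, so the members' median stayed just below that of all genes. For the 8 members above 20 CPM, a level set after the values were seen, the log2 changes ran from -0.15 to 0.16 with standard errors of 0.0778 to 0.0988. Their 95% intervals, taken gene by gene, together spanned ratios of knockout to WT from 0.789 to 1.29, so a 1.5-fold change in either direction lies outside the interval of each of these 8. Kera and Epyc were too variable between libraries for such a bound.

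**Figure D1:**
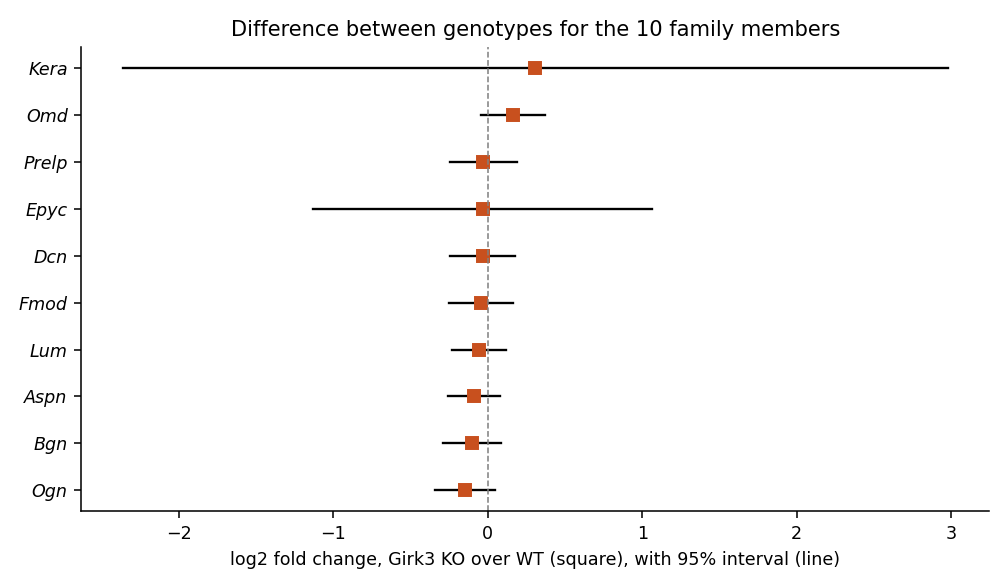
Log2 fold change of each of the 10 members, knockout over WT (squares), with its 95% interval (lines) from the fit over all tested genes. The 8 abundant members sit between -0.15 and 0.16 with short intervals that include 0, and Kera and Epyc have wide intervals.

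The class I members were among the most abundant of the family. Bgn, the X-linked core protein gene that carries a pair of chondroitin or dermatan sulfate chains and can signal through Toll-like receptors, stood at 3292, 2826, 2782 and 2538 CPM in knockout replicates 1 to 4, against 3161, 2870.2, 3064 and 3177 CPM in WT replicates 1 to 4. The knockout libraries held both the highest and the 3 lowest values, and the groups overlapped. The log2 change of Bgn was -0.10 ± 0.0869 (SE, edgeR adjusted p = 0.585). Dcn, which binds collagen type I and holds TGF-beta in the matrix, averaged 1195 ± 144 CPM in knockout and 1224 ± 94.7 CPM in WT (SD, n = 4 each). The lowest Dcn value, 990.2 CPM, was that of knockout replicate 4, and the other 3 knockout libraries, at 1206, 1269 and 1316 CPM, lay within or just above the WT range of 1086 to 1297 CPM. Aspn, whose protein lacks a glycosaminoglycan chain, carries a run of aspartates and restrains TGF-beta signalling, averaged 999 ± 43.9 CPM in knockout and 1062 ± 87.1 CPM in WT (SD, n = 4 each). WT replicate 3 held the lowest Aspn value, 940.1 CPM, so the groups overlapped, and the log2 change was -0.09 ± 0.0778 (SE, edgeR adjusted p = 0.591).

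Of the abundant class II members, Lum and Fmod had coefficients of variation over the 8 libraries of 7.06% and 9.27%, and Prelp and Omd of 10.49% and 11.4%. Lum, a keratan sulfate proteoglycan of collagen-rich connective tissue, stood at 1521, 1579, 1693 and 1474 CPM in knockout, against 1639.6, 1800.1, 1613 and 1473 CPM in WT. The lowest knockout and lowest WT values of Lum were nearly equal, both in replicate 4. Fmod, which binds the same region of collagen as Lum and is abundant in tendon, averaged 487 ± 57.4 CPM in knockout and 502 ± 38.1 CPM in WT (SD, n = 4 each). Knockout replicate 3, at 401 CPM, was far below the other knockout libraries, at 509 to 525 CPM. Without that library the log2 change of Fmod was 0.04, in place of -0.04. Prelp, whose basic end binds heparan sulfate, was the lowest of the abundant members, at 44.4 ± 5.21 CPM in knockout and 45.3 ± 4.90 CPM in WT (SD, n = 4 each). Gm15851, a gene on the opposite strand, shares 9.68% of the exon bases of Prelp; it held at most 10 counts in any library, against at least 1546 for Prelp.

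Omd and Ogn, which lie side by side on chromosome 13, were the members of smallest p, with changes of opposite sign. Omd, also called osteoadherin, is a bone proteoglycan made by osteoblasts that binds their integrins. It stood at 214, 199, 211 and 164 CPM in knockout replicates 1 to 4, against 176, 186, 187 and 154 CPM in WT replicates 1 to 4. In 3 knockout libraries Omd was above every WT library, and in knockout replicate 4 it was below 3 of the 4 WT libraries. Its log2 change was 0.16 ± 0.0955 (SE, edgeR adjusted p = 0.409), and with 1 library left out it ran from 0.10 to 0.25. The highest value, with an adjusted p of 0.101, was that without knockout replicate 4. Leaving out that library also raised the genes called over the whole table from 234 to 608. Ogn, or mimecan, a class III member of bone and connective tissue matrix, stood at 503, 522, 441 and 411 CPM in knockout, against 537, 520.3, 550.2 and 473 CPM in WT. Knockout replicates 3 and 4 were below every WT library, and knockout replicates 1 and 2 were within the WT range. The log2 change of Ogn was -0.15 ± 0.0888 (SE, edgeR adjusted p = 0.414).

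**Figure D2:**
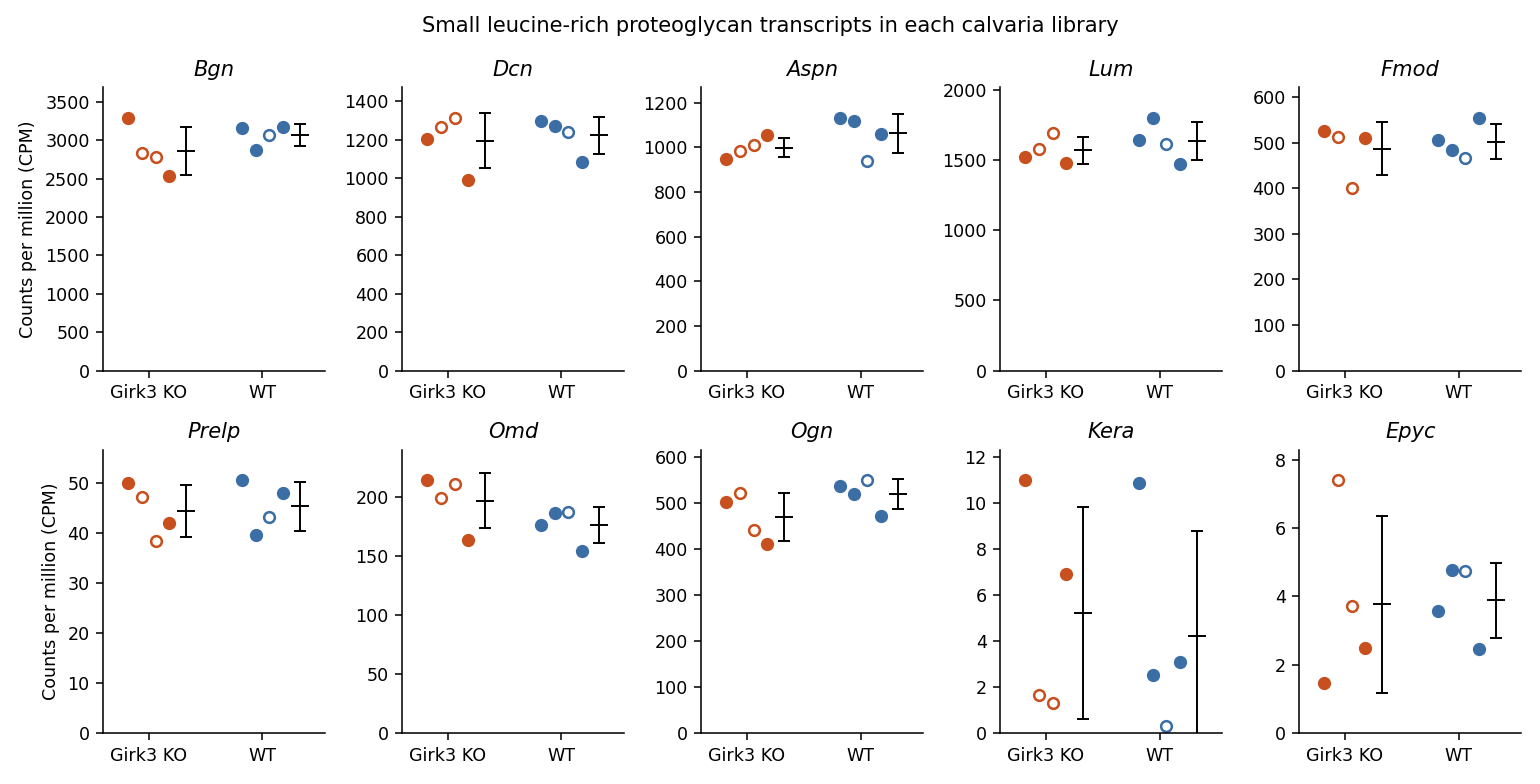
CPM of each member in each library (points; linear axes from 0), with mean and SD at the right of each group (n = 4 each); open points are the 3 libraries low in muscle RNA, and the lower SD bar of Kera in WT is clipped at 0. The groups overlap in every panel, and Kera and Epyc scatter far more than the other 8.

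Since a ratio of 2 genes within a library needs no scaling between libraries, all 28 ratios among the 8 abundant members were compared. The Omd to Ogn ratio was 0.425, 0.381, 0.478 and 0.398 in knockout and 0.329, 0.358, 0.340 and 0.326 in WT, so every knockout library was above every WT library. The Dcn to Omd ratio was lower in every knockout library, at 6.08 ± 0.323 in knockout and 6.96 ± 0.308 in WT (SD, n = 4 each). These were 2 of 28 ratios, or 7.14%. Among all 1343980 pairs of the 1640 genes with a mean of at least 100 CPM, 11.5% of ratios did not overlap between the genotypes. Prelp, 1 of the 8 members, is below that level at a mean of 44.9 CPM, so the shares are not fully matched in level. The share in the family was not above that background, and the separation of these ratios is not a result about the family.

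The members lie in 3 clusters and 1 single locus (coordinates of GRCm38/mm10). Dcn, Lum, Kera and Epyc follow each other on the plus strand of chromosome 10 between 97479609 and 97682454, Aspn, Omd and Ogn on the plus strand of chromosome 13 between 49544443 and 49624501, and Prelp and Fmod stand on opposite strands of chromosome 1 between 133910304 and 134048277. Bgn is at 73483602 to 73495933 on the X chromosome. Members of 1 cluster did not share a level, since the chromosome 10 cluster held both abundant genes (Dcn, Lum) and scarce ones (Kera, Epyc). The chromosome 13 genes lie inside the span of Cenpp on the opposite strand, but the exon bases shared with it were 0.297% for Aspn and 0 for Omd and Ogn.

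Start regions of 4 members are shown for the contrasts above: Bgn, with the most counts; the neighbours Omd and Ogn, with changes of opposite sign; and Kera, the most variable member. Each sequence is the RefSeq window (GRCm38.p6) from 250 bases before to 50 bases after the gene start that RefSeq gives, written 5′ to 3′ on the gene's strand, all plus. Capitals mark TATAAA, the core TGTGGT that RUNX factors bind, and the E-box CANNTG, on either strand. The Ogn capitals include overlapping matches. The windows are chrX:73483351-73483650 for Bgn, chr13:49582212-49582511 for Omd, chr13:49607765-49608064 for Ogn and chr10:97606955-97607254 for Kera. The Kera window begins downstream of the gene's start at 97606879 in the GENCODE annotation.
Bgn: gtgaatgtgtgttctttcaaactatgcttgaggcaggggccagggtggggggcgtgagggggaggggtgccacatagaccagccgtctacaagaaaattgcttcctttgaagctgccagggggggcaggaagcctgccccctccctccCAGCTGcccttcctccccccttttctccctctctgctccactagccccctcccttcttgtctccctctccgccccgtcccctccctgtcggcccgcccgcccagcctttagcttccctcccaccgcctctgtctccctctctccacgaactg
Omd: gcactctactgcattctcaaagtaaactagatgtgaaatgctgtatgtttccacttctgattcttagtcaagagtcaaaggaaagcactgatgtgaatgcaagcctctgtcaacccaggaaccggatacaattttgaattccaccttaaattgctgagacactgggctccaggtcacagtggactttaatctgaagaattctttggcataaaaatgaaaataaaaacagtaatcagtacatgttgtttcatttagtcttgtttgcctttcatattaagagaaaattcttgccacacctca
Ogn: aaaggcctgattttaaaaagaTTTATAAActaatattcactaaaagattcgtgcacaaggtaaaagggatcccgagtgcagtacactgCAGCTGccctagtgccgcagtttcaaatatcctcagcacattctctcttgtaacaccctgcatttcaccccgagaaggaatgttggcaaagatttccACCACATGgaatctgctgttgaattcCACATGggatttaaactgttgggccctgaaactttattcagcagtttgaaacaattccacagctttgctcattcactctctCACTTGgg
Kera: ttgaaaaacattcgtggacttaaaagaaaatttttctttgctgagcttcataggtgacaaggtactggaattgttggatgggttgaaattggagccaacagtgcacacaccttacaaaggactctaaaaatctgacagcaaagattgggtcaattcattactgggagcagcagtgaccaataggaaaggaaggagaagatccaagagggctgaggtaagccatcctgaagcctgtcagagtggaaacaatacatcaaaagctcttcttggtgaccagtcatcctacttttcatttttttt

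The Bgn window was 63.7% G and C and held 1 E-box, whereas those of Omd, Ogn and Kera were 37.7%, 42.3% and 41.0% G and C, beside a median of 52.7% over all windows in the table. Ogn held TATAAA on both strands far upstream, at -229 and -227, 1 TGTGGT on the minus strand at -65, and 4 E-boxes. Omd and Kera held none of the 3 motifs in these letters. Among all 32851 windows of this length, 13.6% held TATAAA, 16.8% TGTGGT and 72.3% an E-box. A match is only a description of the letters. Windows were found for 8 of the 10 members.

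Ordered by level per kilobase of exon (CPM per kb, mean over the 8 libraries), the family ran from Lum at 653 ± 46.1 to Epyc at 1.496 ± 0.718 (SD, n = 8). Between them came Bgn at 486 ± 41.3, Aspn at 438 ± 30.8, Dcn at 207 ± 19.5, Ogn at 193 ± 19.0, Fmod at 149.6 ± 13.9, Omd at 82.9 ± 9.45, Prelp at 12.4 ± 1.302 and Kera at 2.07 ± 1.88. Lum was above Bgn in 8 of 8 libraries with no overlap of their ranges, while the ranges of 4 pairs of neighbours overlapped. Within these pairs Bgn was above Aspn in 6 of 8 libraries, Dcn above Ogn in 7, Ogn above Fmod in 8 and Kera above Epyc in 4. The place of Bgn depended on the length used. Its 8 annotated transcripts cover 6099 exon bases together, but the longest has 2666, and per kilobase of longest transcript Bgn came first at 1112 ± 94.5 CPM per kb, above Lum at 653 in 8 of 8 libraries. Lum ranked 36th, Bgn 52nd and Aspn 63rd among 17702 tested genes with a length, per kilobase of union exon length. The 10 members together took 0.796 ± 0.0340% of all counts in knockout and 0.808 ± 0.0214% in WT (SD, n = 4 each).

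**Figure D3:**
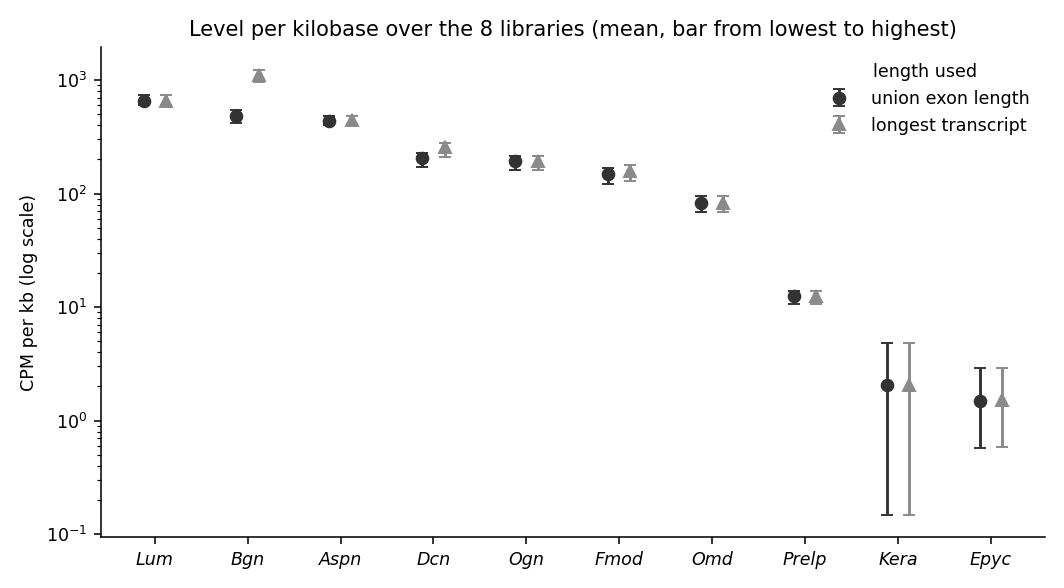
CPM per kilobase of each member on a log axis, mean over the 8 libraries with bars from the lowest to the highest library, by union exon length (circles) and by longest transcript (triangles). Bgn stands at 486 by union exon length and at 1112 by longest transcript, and Lum at 653 by both.

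The spread between libraries divided the family. The coefficient of variation of the abundant members ran from 7.03% for Aspn to 11.4% for Omd, beside a median of 9.15% over the 9843 tested genes of at least 10 CPM. It was 91.1% for Kera and 48.0% for Epyc. Kera, the keratan sulfate proteoglycan best known from the cornea and also made in tendon, stood at 10.97, 1.67, 1.31 and 6.91 CPM in knockout replicates 1 to 4, against 10.8, 2.55, 0.335 and 3.09 CPM in WT replicates 1 to 4. The highest library was 32.7-fold above the lowest, and the high and low values fell in both genotypes alike. The 3 lowest Kera values were those of the 3 libraries low in muscle RNA. Its log2 change was 0.31 ± 1.10 (SE, edgeR adjusted p = 0.918), and without those 3 libraries 0.71 (adjusted p = 0.838). Without knockout replicate 1 it was -0.37, and without WT replicate 1 it was 1.38, with adjusted p of 0.906 and 0.619.

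Among tested genes with a mean of at least 10 CPM, the profile most like that of Kera was that of Thbs4, a thrombospondin of tendon and muscle matrix. Kera itself, at a mean of 4.71 CPM, was below that level, so scarcer genes were not compared. Their centred log2 CPM differed by a root mean square of 0.458, where Kera itself varied by 1.56. Thbs4 stood at 24.9, 3.35, 5.92 and 16.5 CPM in knockout and 17.6, 7.43, 0.827 and 12.4 CPM in WT. Its lowest values were in the 3 libraries low in muscle RNA, but Thbs4 was picked for its likeness to Kera over these same libraries. Its low values there are therefore not a separate observation. The 4 tendon markers, which include Thbs4, summed to between 124 and 177 CPM in knockout and between 108 and 197 CPM in WT, and the other 3 did not all follow Thbs4. Tnmd, a tendon membrane protein gene, was also lowest in those 3 libraries, at 83.6 and 74.7 CPM in knockout replicates 2 and 3 and 69.4 CPM in WT replicate 3. Mkx, a tendon transcription factor gene, was highest in knockout replicates 2 and 3, at 38.5 and 36.3 CPM. Scx, another tendon transcription factor gene, was lower in knockout replicate 1, at 6.88 CPM, than in knockout replicate 3 and WT replicate 3. The part of attached muscle and tendon in the Kera values was not tested.

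Epyc, a dermatan sulfate proteoglycan of growth plate cartilage, stood at 1.47, 7.40, 3.73 and 2.502 CPM in knockout, against 3.58, 4.76, 4.74 and 2.46 CPM in WT. Its highest value was in knockout replicate 2, low in muscle RNA, and its lowest in knockout replicate 1, where muscle RNA was highest. WT replicates 2 and 3, with muscle markers at 1687 and 27.8 CPM, had nearly equal Epyc values, so Epyc did not follow muscle RNA throughout. Its log2 change was -0.03 ± 0.474 (SE, edgeR adjusted p = 0.981). It was -0.85 without the 3 libraries low in muscle RNA, with an unadjusted p of 0.0280 and an adjusted p of 0.541, so 1 choice of libraries moved the value widely without a call. The library highest in Epyc was not the highest in cartilage markers, whose sum was 216, 194, 173 and 219 CPM in knockout and 212, 203, 163 and 223 CPM in WT. Among the same genes of at least 10 CPM, the profiles most like that of Epyc were those of Car2, a carbonic anhydrase gene, and Cd24a. Their root mean square differences were 0.236 and 0.390, and Epyc itself had a mean of 3.83 CPM. Gm10754, a noncoding RNA gene on the opposite strand, shares 40.6% of the exon bases of Epyc and held 0 counts in every library. Whether the counting used strand is not stated, so how reads in the shared bases were assigned is not known.

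**Figure D4:**
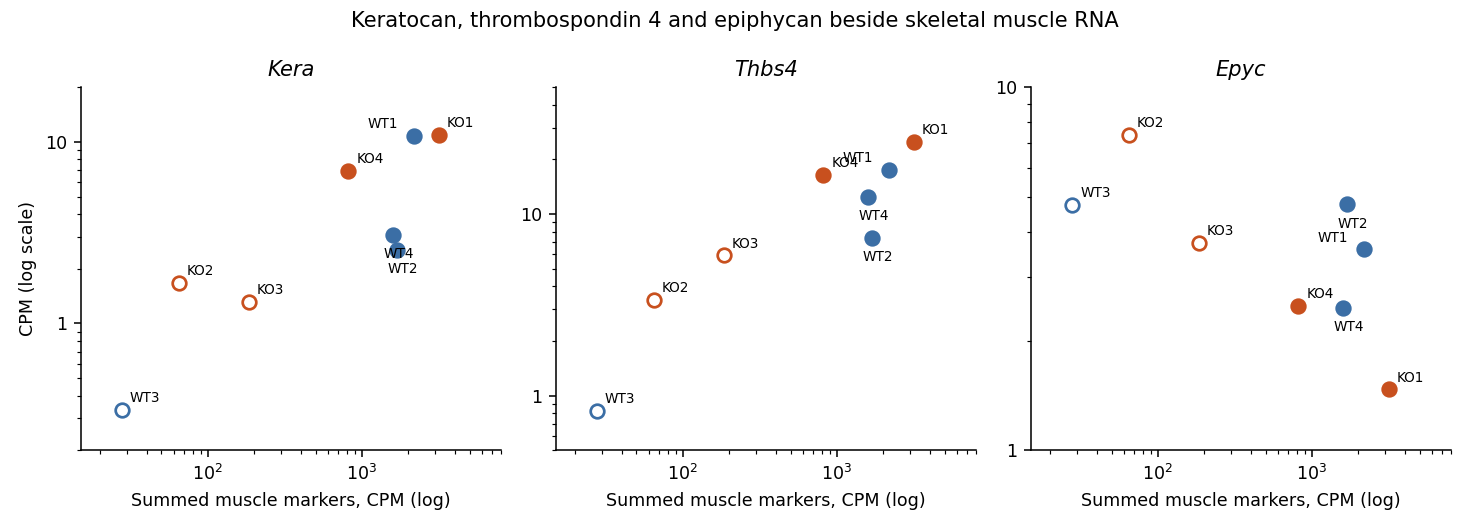
CPM of Kera, Thbs4 and Epyc (log axes) against the summed CPM of 12 skeletal muscle markers in each of the 8 libraries, knockout in orange and WT in blue; open points are the 3 libraries low in muscle RNA. Kera and Thbs4, which was picked for its likeness to Kera, are lowest in those 3 libraries. Epyc is highest in knockout replicate 2, which is among them.

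Of the abundant members, Lum and Dcn had near matches. The root mean square differences were 0.0213 between Lum and Gabpb1 and 0.0325 between Dcn and Srek1ip1, on centred log2 CPM over 8 libraries in which Lum and Dcn themselves varied by 0.094 and 0.134.

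Genes that build, cut or bind these proteoglycans were read from the same fit. Over all tested genes 1.32% passed and 17.4% had an unadjusted p under 0.05. Of 23 tested enzymes that make chondroitin and dermatan sulfate chains, none passed, and 1 had an unadjusted p under 0.05, Chpf2, a chain polymerising factor gene, with a log2 change of 0.25 ± 0.105 (SE, adjusted p = 0.248). The median of the list was 0.05, beside -0.00030 over all tested genes. Of 14 tested keratan sulfate and sulfation genes none passed in edgeR either, with 4 at an unadjusted p under 0.05 and a median of -0.08. The nearest was Chst2, a sulfotransferase gene, at 39.1 ± 4.27 CPM in knockout and 50.9 ± 4.88 CPM in WT (SD, n = 4 each; log2 change -0.38, adjusted p = 0.0658). Of 17 collagen and fibril partner genes none passed, 1 had an unadjusted p under 0.05 and the median was 0.01. Col6a3, a chain of the collagen VI that Bgn and Dcn bind, had a log2 change of 0.22 ± 0.0947 (SE, adjusted p = 0.257). Of 8 further leucine-rich repeat matrix genes none passed, 2 had an unadjusted p under 0.05, and 7 had a log2 change below 0 (median -0.22). The member of smallest p was Tsku, a secreted BMP and Wnt antagonist gene, at 52.2 ± 3.72 CPM in knockout and 61.6 ± 1.91 CPM in WT (SD, n = 4 each; log2 change -0.24, edgeR adjusted p = 0.115). Podn, which encodes podocan, had a log2 change of 0.25 ± 0.103 (SE, adjusted p = 0.241).

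In a list of protease genes and protease enhancer genes (Pcolce, Pcolce2), 1 of 11 tested fell, where 0.874% of all tested genes fell. The proteases can cut the family or its collagen partners. Of these 11, 2 had an unadjusted p under 0.05, where 17.4% of all tested genes did. Mmp13, a collagenase that also cleaves Fmod and Bgn, stood at 1422, 1238, 1296 and 1227 CPM in knockout replicates 1 to 4, against 2005, 2129, 3412 and 2618 CPM in WT replicates 1 to 4. Every knockout library was below every WT library, and the log2 change was -0.97 ± 0.149 (SE, edgeR adjusted p = 0.0135). Leaving out knockout replicate 2 (adjusted p = 0.0564), knockout replicate 3 (0.0510) or WT replicate 4 (0.0514) ended the call, as did leaving out the 3 libraries low in muscle RNA (log2 change -0.76, adjusted p = 0.165).

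Of 18 growth factor and receptor genes whose products the family binds or signals through, 1 rose, where 0.445% of all tested genes rose. An unadjusted p under 0.05 was reached by 6 of the 18, beside 17.4% of all tested genes. Bmp4, a bone morphogenetic protein gene, stood at 27.1, 26.1, 27.0 and 29.3 CPM in knockout, against 21.4, 22.1, 18.2 and 19.8 CPM in WT, with no overlap. The log2 change of Bmp4 was 0.43 ± 0.0791 (SE, edgeR adjusted p = 0.0233). Its call was lost without any 1 of knockout replicates 1, 2 and 3 and WT replicates 3 and 4 (adjusted p 0.0512 to 0.0739) and without the 3 libraries low in muscle RNA (0.330), while its log2 change stayed between 0.38 and 0.48 in all 18 alternatives. Bmp2 did not pass, at a log2 change of 0.27 ± 0.0702 (SE, adjusted p = 0.0817), nor did Tgfb2, at -0.28 ± 0.0853 (adjusted p = 0.127).

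Of 24 other proteoglycan core protein genes, 2 fell and none rose, where 0.874% of all tested genes fell and 0.445% rose. An unadjusted p under 0.05 was reached by 6 of the 24, beside 17.4% of all tested genes. Srgn, which encodes serglycin, the proteoglycan of secretory granules in blood cells, stood at 8.55, 8.87, 7.66 and 7.51 CPM in knockout, against 13.8, 13.8, 14.8 and 12.5 CPM in WT. Its groups did not overlap, and its log2 change was -0.75 ± 0.0942 (SE, edgeR adjusted p = 0.00358), a call kept whichever single library was left out but lost without the 3 libraries low in muscle RNA (-0.73, adjusted p = 0.149). Macrophage markers were also lower in knockout. Of these, 10 of 10 had a log2 change below 0 and 3 passed. Their sum ran from 493 to 573 CPM in knockout and from 635 to 810 CPM in WT. Within the genotypes the order was mixed. Knockout replicate 4 had the lowest Srgn value of its group and the highest macrophage sum, whereas WT replicate 3 was highest in both. The part of macrophage RNA in the Srgn difference was not tested. Prg4, which encodes lubricin, the lubricant of joint surfaces, was low, at 1.68 ± 0.216 CPM in knockout and 3.10 ± 0.117 CPM in WT (SD, n = 4 each), and its log2 change was -0.88 ± 0.159 (SE, edgeR adjusted p = 0.0228). The Prg4 call was lost without any 1 of knockout replicates 1, 2 and 3 and WT replicates 2, 3 and 4 (adjusted p 0.0514 to 0.0739) and without the 3 libraries low in muscle RNA (0.269), while its log2 change stayed between -1.02 and -0.81 in all 18 alternatives.

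**Figure D5:**
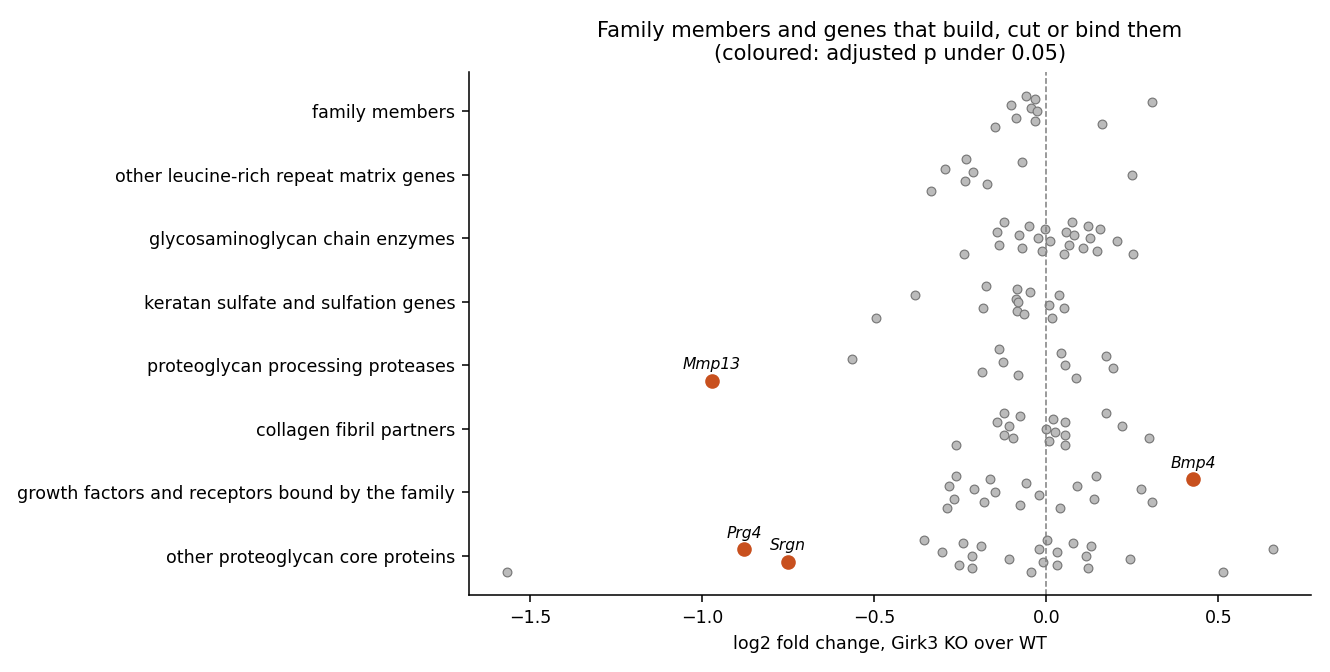
Log2 fold change, knockout over WT, of the 10 family members and of the tested genes of 7 related lists; coloured points passed an adjusted p of 0.05 and grey points did not. Mmp13, Srgn and Prg4 lie between -0.97 and -0.75 and Bmp4 at 0.43, while no family member is coloured.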

How the data were processed

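Gene expression in calvaria was taken from the deposited table of raw read counts per gene for 8 libraries, 4 per genotype. Per the submitters' processing notes the authors used bcl2fastq 2.17, STAR 2.5.2b and featureCounts of Subread 1.5.2 with mm10; which annotation release and strand setting they chose was not given in the sources used here. The counts are whole numbers as deposited. Counts were tested with edgeR 4.0.16 (R 4.3.3; TMM scaling, low counts filtered with a minimum count of 10 and total of 15, quasi-likelihood test, Benjamini-Hochberg adjustment over 17743 genes). The test was checked on simulated data. DESeq2 1.42.0, limma-voom 3.58.1, other scalings and filters, a replicate block, a muscle covariate and left-out libraries were the alternatives. CPM were scaled by library totals (35.4 M to 54.3 M counts before scaling) multiplied by TMM factors. CPM per kb used GENCODE M21 exon lengths (GRCm38). Likeness is the root mean square difference of centred log2 CPM (prior count 2), searched among tested genes with a symbol and a mean of at least 10 CPM. The members and gene lists were chosen with earlier results of these data known. The text names all members, every gene of the other lists that passed and up to 2 of smallest p that did not; some genes chosen for likeness are not reported here. The labels do not say that each library is a separate mouse, nor give litters, so p-values measure the spread between these samples. Same-numbered libraries were not paired. Floors cover counting error only. Figures were drawn with matplotlib 3.10.9.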

Additional observations from a re-analysis of the deposited data

Results flagged for a closer look

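Fmod in knockout replicate 3 stood at 401 CPM, against 509 to 525 CPM in the other 3 knockout libraries, a gap of 0.869 of the group's range, and was marked as a sample far from the others. It was 1 of 28 groups of 4 examined (14 genes in both genotypes), and chance marks about 1 group in 20. Knockout replicate 3 is also 1 of the 3 libraries low in muscle RNA, whose part in this value was not tested.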

How the results depend on the processing

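No member was called in any of the 18 alternatives, in which the smallest adjusted p of a member was 0.101 (Omd without knockout replicate 4). Genes called over the whole table, 234 as reported, were 355 with no filter, 982 by DESeq2, 126 with a replicate block, 8 without the 3 libraries low in muscle RNA and 57 to 608 with 1 library left out. The DESeq2 calls below stand beside the 7.06% that it called of 13911 genes with an adjusted p, against 1.32% in edgeR. Of the 8 further leucine-rich repeat genes DESeq2 called 1. Of the 15 listed keratan sulfate and sulfation genes 1 was called with no filter, 2 by DESeq2 and 0 to 2 with 1 library left out. Of the 12 listed proteases and protease enhancers 0 were called without the 3 libraries and 0 to 1 with 1 library left out. Of the 18 growth factors and receptors 3 were called by DESeq2 and 0 with the replicate block. Without the 3 libraries 0 of these were called, and 0 to 2 with 1 library left out. Of the 24 other proteoglycan cores 4 were called by DESeq2 and 1 with the replicate block. Without the 3 libraries 0 of these cores were called, and 1 to 2 with 1 library left out. The sign of the log2 change turned for 5 members. With library totals Dcn was 0.0184, Fmod 0.00823, Prelp 0.0231 and Epyc 0.0323, where the median of all genes moved to 0.05. Without the 3 libraries Fmod was 0.0163 and Prelp 0.0080. With 1 library left out Dcn ran from -0.0882 to 0.0522, Fmod from -0.0843 to 0.0362, Prelp from -0.0909 to 0.0350, Kera from -0.37 to 1.38 and Epyc from -0.59 to 0.24. The causes were not tested, but leaving libraries out leaves fewer samples. Same-numbered libraries correlated at 0.255, -0.179, 0.340 and -0.005, and not every library correlated best with its own number. Depth did not limit the abundant members, with at least 1546 counts in each library, whereas Kera had as few as 15.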
